A study of Danio rerio with 12 samples.

Results

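The genes described here are 10 zebrafish genes of the aryl hydrocarbon receptor (AHR) response, out of 32105 Ensembl gene IDs counted. They are the cytochrome P450 family 1 genes cyp1a (ENSDARG00000098315), cyp1b1, cyp1c1, cyp1c2 and cyp1d1, the receptor genes ahr1a and ahr2, the AHR repressor genes ahrra and ahrrb, and tiparp. They were chosen by symbol, each symbol matched 1 ID, and all 10 passed the filter on low counts. Pools of 10 whole larvae were collected at about 119 hours post-fertilization for RNA-seq. Wild-type TAB14 larvae were compared with larvae from an incross of homozygous as3mt mutants on a WT-ABNYU background. The mutants carry an 8 bp deletion in exon 3 of as3mt, the gene of arsenite methyltransferase, made with CRISPR in a single line. Inorganic arsenic (iAs) was given at 1 mM, starting 6 hours after fertilization, to 1 arm of each genotype, and the other arm stayed at 0 mM. Wells of 10 mL held 20 embryos, and each of the 4 groups had 3 libraries. Because the mutant and the wild type come from different strains, genotype and strain cannot be told apart.

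AHR is a transcription factor that waits in the cytosol with heat shock protein 90 and its cochaperones, and moves to the nucleus when it binds dioxins, polycyclic aromatic hydrocarbons or tryptophan-derived ligands. There it pairs with its nuclear partner Arnt. The complex turns on cyp1 genes, whose enzymes oxidise such compounds, and also turns on its own brakes, the AHR repressors and the ADP-ribosyltransferase Tiparp. Zebrafish carry several receptor copies, and Ahr2 is the copy known for dioxin toxicity in the embryo. In fish, cyp1a is a standard exposure marker, expressed in liver, gut, kidney and vascular endothelium when induced.

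Library totals ran from 28909467 to 43759270 counts, and levels are given as CPM, the counts scaled to a common library size. The targeted gene as3mt (ENSDARG00000027572) ran from 14.3 to 17.2 CPM in untreated wild type, 9.73 to 9.93 in treated wild type, 9.21 to 9.91 in the untreated mutant and 3.02 to 3.51 in the treated mutant. A count per gene takes in reads outside the deletion, so it does not test for loss of the protein. Adjusted p-values are from edgeR's quasi-likelihood test with Benjamini-Hochberg adjustment over 23096 genes, and a gene is called below 0.05. The labels do not state whether replicates were separate clutches, so the tests speak only to the spread among these libraries, part of which may be technical.

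The first question was how iAs moved these genes in each genotype. In both genotypes cyp1a fell, cyp1d1 fell to a smaller extent, ahr1a fell, and ahr2 and tiparp rose. The neighbouring paralogs cyp1c1 and cyp1c2 fell in wild type and rose in the mutant. In wild type 7 of the 10 genes were called, 2 higher and 5 lower, where 44.8% of all genes tested were called, 22.6% higher and 22.2% lower. In the mutant 8 of 10 were called, 4 higher and 4 lower, where 63.6% of all genes were called, 31.1% higher and 32.6% lower. Treated and untreated ranges did not overlap for 8 of the 10 in wild type, against 55.5% of all genes, and for 7 in the mutant, against 66.7%. The count of calls is thus to be read against a background in which a large share of all genes moved. The median log2 fold change of the 10 genes was -0.41 in wild type and -0.01 in the mutant, and that of all genes was 0.01 in both. Counts from whole larvae cannot tell fewer cells of a type from less RNA per cell.

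**Figure D1:**
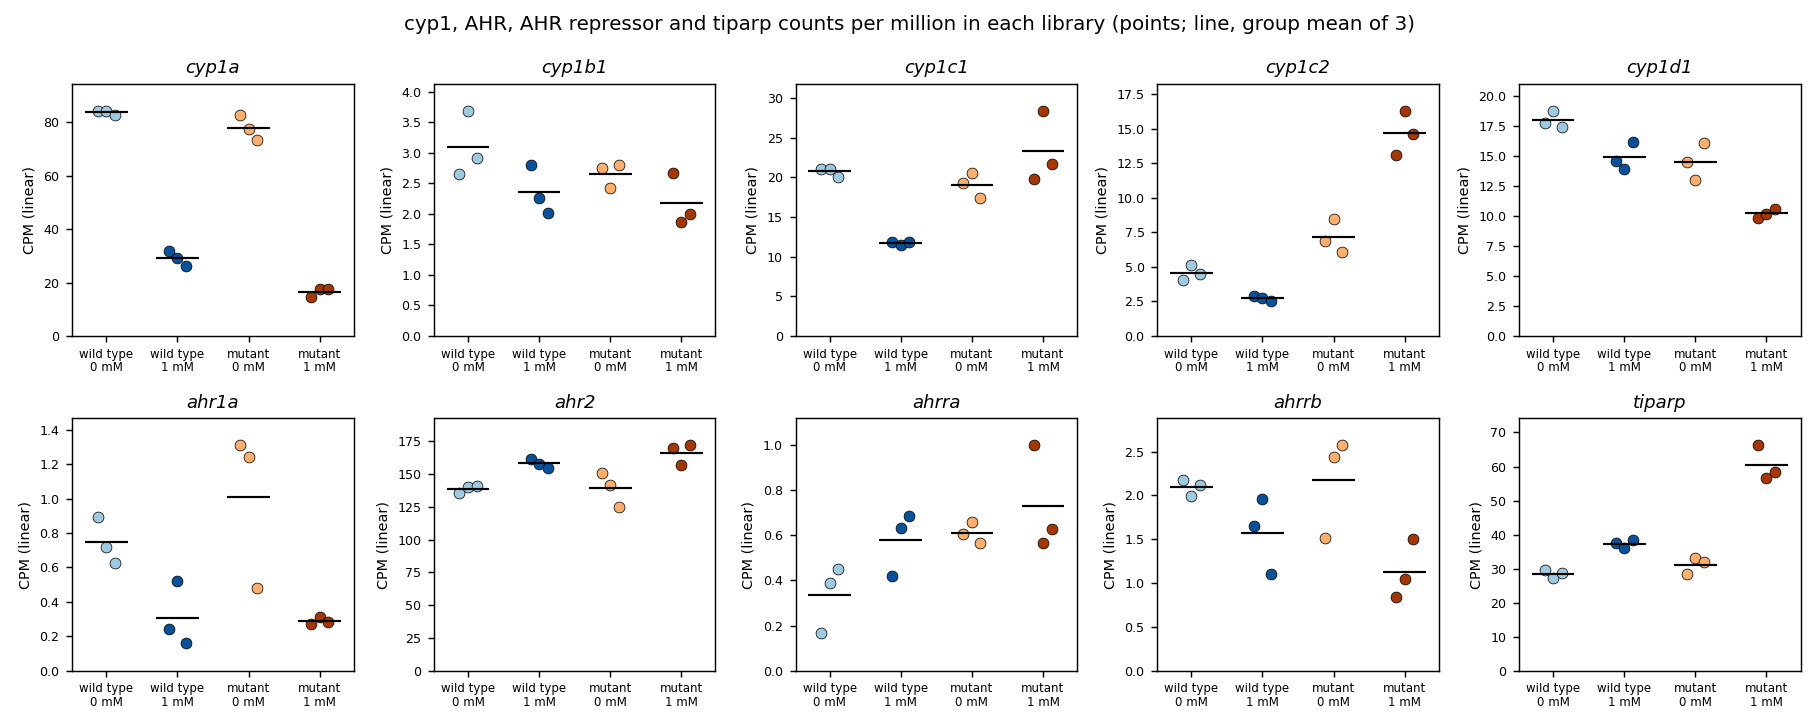
CPM of each of the 10 genes (vertical axes, linear, from 0) in each library of the 4 groups, with points for libraries and lines for means of 3. cyp1a is low in both treated groups, whereas cyp1c2 is lowest in treated wild type (2.56 to 2.92) and highest in the treated mutant (13.1 to 16.3).

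cyp1a encodes the main hydrocarbon-inducible P450 of fish. Its levels were 84.3, 84.4 and 82.8 CPM in untreated wild type and 31.7, 29.3 and 26.3 in treated wild type. In the mutant they were 82.7, 77.4 and 73.5 CPM untreated and 14.5, 17.5 and 17.4 treated. The treated libraries lay below the untreated ones in each genotype with no overlap, and the treated mutant lay below treated wild type. cyp1a was 2.88-fold lower with iAs in wild type (log2 fold change -1.53, SE 0.08, adjusted p = 6.7e-11). In the mutant it was 4.74-fold lower (-2.24, SE 0.08, adjusted p = 2.7e-13). The fall was larger in the mutant by 0.72 on the log2 scale, as the difference of the responses was -0.72 (SE 0.11, adjusted p = 1.4e-04). From the highest level to the lowest the order was untreated wild type, untreated mutant, treated wild type and treated mutant. The first neighbours in this order were not called different (log2 fold change -0.11, 95% confidence interval -0.27 to 0.06, adjusted p = 0.416), although their library ranges just missed each other.

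cyp1c1 and cyp1c2 encode a pair of fish P450s that lie next to each other in the RefSeq gene order (assembly GRCz12tu), and both are known in zebrafish as dioxin-inducible. How reads shared by these paralogs were counted is not given in the sources used here, so their separate levels carry that uncertainty. cyp1c1 stood at 21.1, 21.1 and 20.0 CPM in untreated wild type and at 11.8, 11.4 and 11.9 in treated wild type. Mutant libraries stood at 19.3, 20.5 and 17.4 CPM untreated and at 19.8, 28.4 and 21.7 treated. Treated wild type was lowest, clear of the other 3 groups, and the mutant groups overlapped. cyp1c1 was 1.77-fold lower with iAs in wild type (log2 fold change -0.82, SE 0.11, adjusted p = 1.0e-05), while in the mutant it was 1.22-fold higher (0.29, SE 0.11, adjusted p = 0.0254). The rise in the mutant lost its call without replicate 1 (adjusted p = 0.0571) or 3 (adjusted p = 0.122, at 0.22) of the untreated mutant, and without replicate 2 of the treated mutant (adjusted p = 0.156, at 0.15). It also lost it with library sizes alone (adjusted p = 0.0881) and with only the libraries compared in the fit (adjusted p = 0.0625).

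cyp1c2 stood at 4.07, 5.13 and 4.49 CPM in untreated wild type and at 2.92, 2.71 and 2.56 in treated wild type. Mutant libraries stood at 6.86, 8.48 and 6.10 CPM untreated and at 13.1, 16.3 and 14.6 treated. The 4 groups did not overlap, in the order treated wild type, untreated wild type, untreated mutant and treated mutant. With iAs cyp1c2 was 1.68-fold lower in wild type (log2 fold change -0.75, SE 0.15, adjusted p = 6.4e-04), and was 2.05-fold higher in the mutant (1.04, SE 0.13, adjusted p = 1.9e-06). The difference between the responses was 1.78 on the log2 scale for cyp1c2 (SE 0.20, adjusted p = 4.5e-06) and 1.11 for cyp1c1 (SE 0.15, adjusted p = 3.8e-05).

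Read as a ratio, which drops the library scaling, there were 19.3 to 24.3 counts of cyp1c2 per 100 counts of cyp1c1 in untreated wild type and 21.5 to 24.7 in treated wild type. The mutant held 35.0 to 41.3 untreated and 57.5 to 67.3 treated. The ratio was thus in the same range in both wild-type groups, higher in the untreated mutant and highest in the treated mutant, with no overlap between these 3 levels. cyp1a took 64.4% ± 0.898 (SD, n = 3) of all cyp1 counts in untreated wild type and 64.2% ± 1.25 (SD, n = 3) in the untreated mutant. With iAs its share was 47.8% ± 2.80 (SD, n = 3) in wild type and 24.7% ± 1.48 (SD, n = 3) in the mutant. Such ratios are not corrected for transcript length, so they show unequal change between the genes and not which transcript was more abundant.

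**Figure D2:**
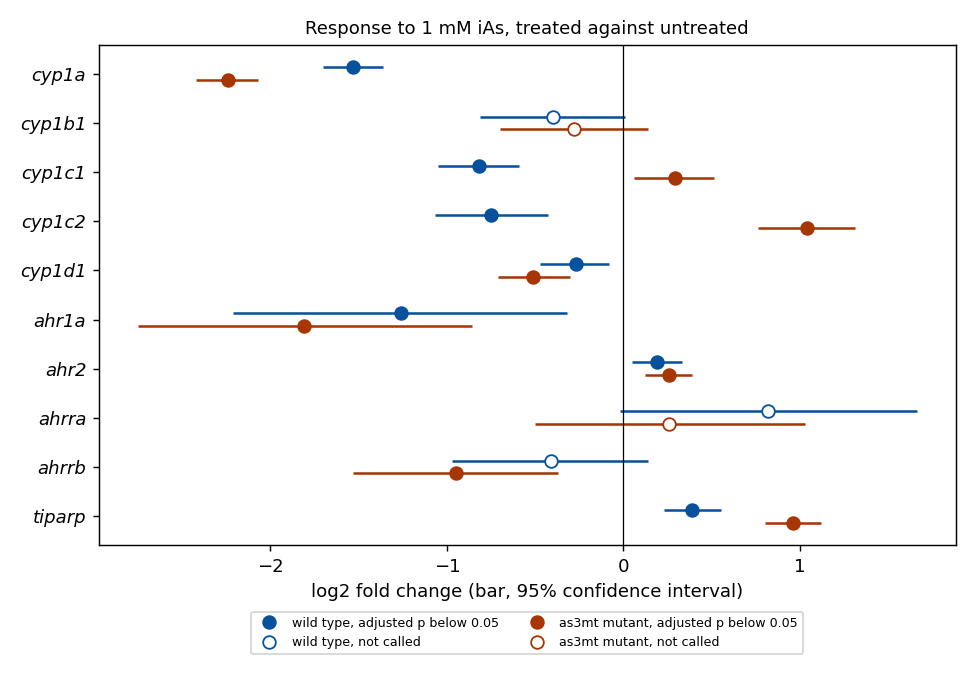
Log2 fold change with 1 mM iAs against 0 mM (horizontal axis, with 95% confidence intervals) for the 10 genes in wild type (blue) and the as3mt mutant (brown), filled where the adjusted p was below 0.05. The genotypes part at cyp1c1 (-0.82 and 0.29) and cyp1c2 (-0.75 and 1.04) and run the same way at cyp1a, cyp1d1, ahr1a, ahr2 and tiparp.

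The remaining P450 genes were cyp1d1, which was lower with iAs in both genotypes, and cyp1b1, which was called in neither. cyp1d1, whose human counterpart is a pseudogene and which in zebrafish is known not to respond to dioxin-like inducers, stood at 17.8, 18.8 and 17.4 CPM in untreated and 14.6, 13.9 and 16.2 in treated wild type. The mutant stood at 14.5 ± 1.57 CPM (SD, n = 3) untreated and had 9.87, 10.2 and 10.6 CPM treated, the treated mutant being clear of all other groups. It was 1.21-fold lower with iAs in wild type (log2 fold change -0.27, SE 0.09, adjusted p = 0.0230). In the mutant it was 1.42-fold lower (-0.51, SE 0.10, adjusted p = 1.6e-04). The wild-type call was lost without replicate 2 of the untreated wild type (adjusted p = 0.0983), or replicate 1 (adjusted p = 0.0509) or 2 (adjusted p = 0.115) of the treated wild type. cyp1b1, a P450 that acts on steroids and retinoids and whose human gene is mutated in congenital glaucoma, ranged from 1.87 to 3.69 CPM over the 12 libraries with overlap between all groups. It was not called in wild type (-0.40, 95% confidence interval -0.81 to 0.01, adjusted p = 0.104) or in the mutant (-0.28, interval -0.70 to 0.14, adjusted p = 0.229). Without replicate 1 of the treated wild type it was called lower in wild type (-0.55, adjusted p = 0.0496).

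Among the receptors, ahr2 was measured with 4052 to 6978 counts per library. It stood at 136, 140 and 141 CPM in untreated wild type and at 162, 158 and 155 in treated wild type. Mutant libraries stood at 151, 142 and 125 CPM untreated and at 170, 157 and 172 treated. Treated libraries lay above untreated ones in each genotype, and the genotypes overlapped with iAs and without. It was 1.14-fold higher with iAs in wild type (log2 fold change 0.19, SE 0.07, adjusted p = 0.0256), and was 1.19-fold higher in the mutant (0.26, SE 0.07, adjusted p = 0.00238). The wild-type call was lost without replicate 1 (adjusted p = 0.0877) or 2 (adjusted p = 0.0541) of the untreated wild type and without replicate 1 (adjusted p = 0.104) or 3 (adjusted p = 0.0597) of the treated wild type, with values of 0.16 to 0.20. So cyp1a was lower in the same libraries in which its receptor's transcript was slightly higher.

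ahr1a, a receptor copy that in zebrafish does not bind dioxin, had only 7 to 52 counts per library. Its levels were 0.891, 0.722 and 0.626 CPM in untreated and 0.241, 0.519 and 0.160 in treated wild type. In the mutant they were 1.31, 1.24 and 0.480 CPM untreated and 0.270, 0.311 and 0.282 treated. Treated and untreated libraries did not overlap within a genotype, and replicate 3 of the untreated mutant lay well under the other 2. ahr1a was 2.40-fold lower with iAs in wild type (log2 fold change -1.26, SE 0.45, adjusted p = 0.0295). In the mutant it was 3.49-fold lower (-1.81, SE 0.45, adjusted p = 0.00193). In wild type the value ran from -1.91, without replicate 2 of the treated wild type, to -0.95, without its replicate 3. The call was lost without replicate 1 (adjusted p = 0.0994) or 2 (adjusted p = 0.0576) of the untreated wild type, or replicate 1 (adjusted p = 0.0794) or 3 (adjusted p = 0.127) of the treated wild type. At this depth only a large change of ahr1a could be called, and the difference between the genotypes' responses spanned -1.90 to 0.82.

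The AHR repressors compete with the receptor for Arnt and are themselves receptor targets. ahrra had 6 to 37 counts per library, at 0.167, 0.387 and 0.452 CPM in untreated wild type and 0.421, 0.632 and 0.686 in treated wild type. The mutant had 0.606, 0.659 and 0.565 CPM untreated and 0.998, 0.566 and 0.626 treated, and treated and untreated libraries overlapped in both genotypes. It was not called in wild type (0.82, 95% confidence interval -0.02 to 1.66, adjusted p = 0.107) or in the mutant (0.26, interval -0.50 to 1.03, adjusted p = 0.540). ahrrb stood at 2.17, 1.99 and 2.12 CPM in untreated wild type and at 1.65, 1.96 and 1.10 in treated wild type. Mutant libraries stood at 1.51, 2.44 and 2.57 CPM untreated and at 0.836, 1.05 and 1.50 treated. It was 1.93-fold lower with iAs in the mutant (-0.95, SE 0.27, adjusted p = 0.00575), where the ranges nearly touched, as they did in wild type, where it was not called (-0.41, interval -0.97 to 0.14, adjusted p = 0.219). The difference of the 2 responses was not called for ahrrb (-0.54, interval -1.34 to 0.26, adjusted p = 0.311).

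tiparp encodes a mono-ADP-ribosyltransferase that in mammals modifies AHR and curbs its activity, and its transcript is an AHR target in fish as well. It stood at 29.6, 27.1 and 28.7 CPM in untreated wild type and at 37.6, 36.0 and 38.3 in treated wild type. In the mutant it stood at 28.4, 33.0 and 31.9 CPM untreated and at 66.2, 56.6 and 58.5 treated. The untreated genotypes overlapped, treated wild type lay above both, and the treated mutant lay above all. tiparp was 1.31-fold higher with iAs in wild type (log2 fold change 0.39, SE 0.08, adjusted p = 4.2e-04), and was 1.94-fold higher in the mutant (0.96, SE 0.07, adjusted p = 3.6e-09). The response was larger in the mutant by 0.57 (SE 0.11, adjusted p = 5.9e-04). tiparp and cyp1a, both AHR targets, thus moved in opposite directions in each genotype, and both moved further in the mutant.

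The next question was how the genotypes differed without arsenic. Of the 10 genes, 2 were called, where 13.5% of all genes were, 6.64% higher and 6.82% lower: cyp1c2 was higher in the mutant and cyp1d1 lower. The genotypes' ranges did not overlap for 4 of the 10 genes, against 32.6% of all genes. cyp1c2 was 1.56-fold higher (log2 fold change 0.65, SE 0.14, adjusted p = 0.00460). cyp1d1 was 1.24-fold lower (-0.31, SE 0.09, adjusted p = 0.0315). The cyp1d1 call was lost without any 1 of 5 libraries, which were replicates 1, 2 and 3 of the untreated wild type (adjusted p = 0.0714, 0.125 and 0.0575) and replicates 1 and 2 of the untreated mutant (adjusted p = 0.0786 and 0.162). For ahr2 the difference was 0.00 (95% confidence interval -0.13 to 0.14, adjusted p = 0.979), the narrowest interval among the 10 genes. ahrra was at 0.88 (interval 0.03 to 1.72, adjusted p = 0.174) and ahr1a at 0.43 (interval -0.41 to 1.27, adjusted p = 0.543), both from few counts.

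The genotypes were also compared with arsenic. Of the 10 genes, 5 were called, 3 higher and 2 lower in the mutant, where 50.4% of all genes were called, 22.5% higher and 27.9% lower. The genotypes' ranges did not overlap for 5 of the 10, against 57.4% of all genes, so both counts were near the shares over all genes. cyp1c2 was 5.38-fold higher in the treated mutant than in treated wild type (log2 fold change 2.43, SE 0.14, adjusted p = 5.4e-10), cyp1c1 1.99-fold higher (0.99, SE 0.11, adjusted p = 9.6e-07) and tiparp 1.62-fold higher (0.70, SE 0.07, adjusted p = 5.5e-07). cyp1a was 1.77-fold lower (-0.82, SE 0.08, adjusted p = 3.4e-07) and cyp1d1 1.46-fold lower (-0.55, SE 0.10, adjusted p = 1.3e-04). ahr2 was not called (0.07, 95% confidence interval -0.07 to 0.21, adjusted p = 0.386), nor were cyp1b1, ahr1a, ahrra and ahrrb (adjusted p from 0.160 to 0.873). These comparisons share libraries with the arsenic comparisons above, so they are the same measurements read another way.

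**Figure D3:**
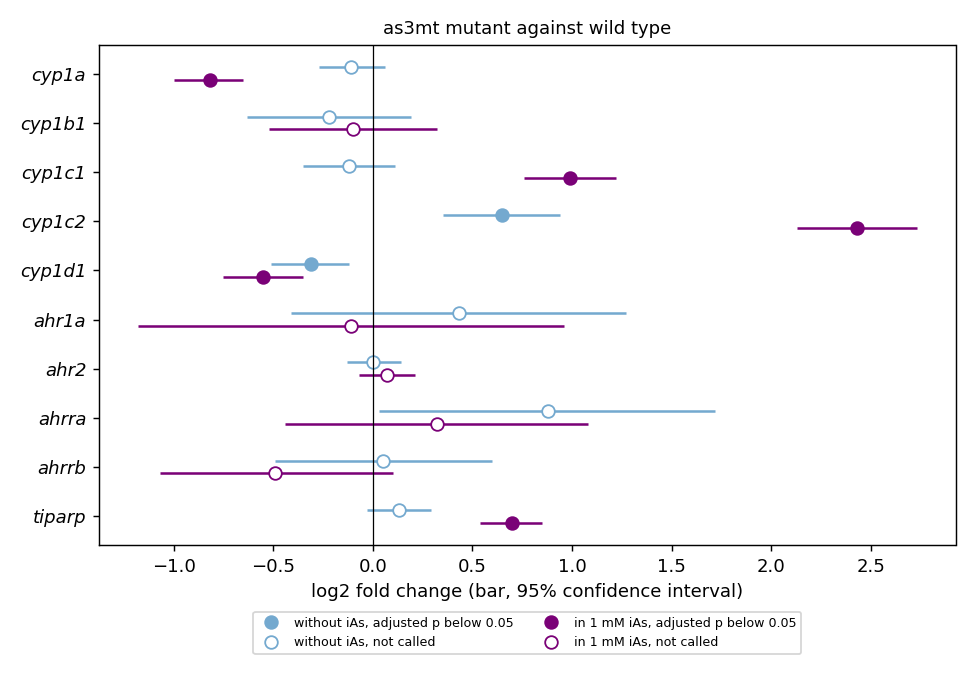
Log2 fold change of the as3mt mutant against wild type (horizontal axis, with 95% confidence intervals) without iAs (light blue) and in 1 mM iAs (purple), filled where the adjusted p was below 0.05. cyp1c2 lies to the right in both, at 0.65 and 2.43, and cyp1a lies near 0 without iAs (-0.11) and to the left with it (-0.82).

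The difference of the responses to iAs between the genotypes was called for 4 of the 10 genes, cyp1a, cyp1c1, cyp1c2 and tiparp, where 30.2% of all genes were called, 12.3% higher and 17.9% lower. Over all genes the mutant's response was higher for 2842 and lower for 4142, and with library sizes alone these were 2110 and 5100. The 4 calls and their directions held under both scalings. For cyp1d1 the difference was -0.23 (95% confidence interval -0.51 to 0.05, adjusted p = 0.202), and for ahr2 it was 0.07 (interval -0.13 to 0.26, adjusted p = 0.630).

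Other genes of the pathway were read from lists, whose counts stand beside the shares over all genes of 22.6% higher and 22.2% lower in wild type and 31.1% higher and 32.6% lower in the mutant. Among the genes that hold and partner the receptor, those of chaperones rose. Of 7 such genes, 4 rose and 1 fell in each genotype, with a median log2 fold change of 0.26 in wild type and 0.50 in the mutant. HSP90AB1, the heat shock protein that holds unliganded AHR, rose 1.60-fold in wild type (log2 fold change 0.68, SE 0.05, adjusted p = 1.9e-08) and was 0.54 higher in the mutant (SE 0.05, adjusted p = 8.8e-08). PTGES3 (ENSDARG00000089626), which encodes the p23 cochaperone, rose 2.12-fold in wild type (1.08, adjusted p = 2.0e-10) and by 0.80 in the mutant (adjusted p = 2.9e-09). Its second copy (PTGES3, ENSDARG00000037284) rose by 0.57 and 0.50 (adjusted p = 3.6e-06 and 5.5e-06). The remaining receptor copy ahr1b and the partners ARNT2 and arnt were named after their values were seen. ahr1b, which lies next to ahr2 in the RefSeq gene order and binds dioxin, ran from 14.0 to 19.1 CPM over the 4 groups and was not called (-0.19 and -0.17, adjusted p = 0.108 and 0.124). ARNT2 fell by 0.18 in wild type (adjusted p = 0.0303) and by 0.23 in the mutant (adjusted p = 0.00435). The other partner gene, arnt, was not called with iAs, at 0.00 in wild type and 0.06 in the mutant (adjusted p = 0.549 in the mutant). Between genotypes arnt was higher in the mutant without iAs (0.29, adjusted p = 0.0267) and with it (0.35, adjusted p = 0.00198).

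Other genes known to answer AHR moved in both directions. Of 15 matched IDs 14 were tested, and 2 rose and 6 fell in wild type, while 2 rose and 8 fell in the mutant, with medians of -0.28 and -0.38. Over all genes 22.2% were called lower in wild type and 32.6% in the mutant. The list does not sort genes that AHR raises from genes that it lowers. The falls in wild type include both SOX9 IDs (-0.29 and -0.33, adjusted p = 0.00289 and 0.00132), matched from the same list entry by a shared name. In the mutant SOX9 (ENSDARG00000003293) was not called (0.15, adjusted p = 0.0645) and the other ID (ENSDARG00000043923) fell (-0.21, adjusted p = 0.0204). cyp3a65, an intestinal and hepatic P450 that is AHR-dependent in zebrafish, went from 331 ± 25.4 to 135 ± 3.00 CPM (SD, n = 3) in wild type and from 285 ± 26.3 to 51.4 ± 18.1 CPM (SD, n = 3) in the mutant. Its log2 fold change was -1.30 in wild type (adjusted p = 2.5e-06) and -2.47 in the mutant (adjusted p = 3.6e-10), and the fall was larger in the mutant (difference -1.18, SE 0.22, adjusted p = 5.5e-04). Among the UDP-glucuronosyltransferases, which attach a sugar acid to oxidised compounds, ugt1b1 fell in wild type and mutant (-0.40 and -1.21, adjusted p = 0.0159 and 3.9e-07), as did ugt1b5 (-0.70 and -1.19, adjusted p = 0.00649 and 1.2e-04). ugt1b2 was at -0.49 in wild type (adjusted p = 0.113) and fell by 0.89 in the mutant (adjusted p = 0.00922). UGT1A1 rose in wild type (0.18, adjusted p = 0.0334) and fell in the mutant (-0.80, adjusted p = 7.2e-09), and ugt1b7 was not called in either (-0.25 and 0.39, adjusted p = 0.403 and 0.158). The aldehyde dehydrogenase gene aldh3a2a rose in both genotypes (0.45 and 0.26, adjusted p = 1.7e-04 and 0.00725). Its paralog aldh3a2b was not called in wild type (-0.16, adjusted p = 0.236) and fell in the mutant (-0.91, adjusted p = 6.2e-07). NQO1 was not called in either genotype (0.17 and 0.06, adjusted p = 0.0653 and 0.495). NFE2L2, a transcription factor gene of the oxidative stress response, fell in wild type (-0.26, adjusted p = 7.3e-04) and rose in the mutant (0.51, adjusted p = 2.0e-07). SOX9, UGT1A1, ugt1b7, aldh3a2a, aldh3a2b, NQO1 and NFE2L2 were named after their values were seen. The UDP-glucuronosyltransferase genes are close relatives, so how reads were shared among them is uncertain. wfikkn1 had too few counts to be tested, with at most 0.0940 CPM in any library.

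The genes that feed electrons to P450 enzymes did not move as a block. Of 5 IDs, 2 rose and 1 fell in wild type, and 2 rose and 2 fell in the mutant. The P450 reductase gene is present as 2 copies that moved in opposite directions. POR (ENSDARG00000055092) went from 55.6 ± 3.54 to 74.6 ± 2.57 CPM (SD, n = 3) in wild type and from 48.4 ± 1.41 to 142 ± 8.31 CPM (SD, n = 3) in the mutant, a rise of 0.43 and 1.56 (adjusted p = 3.2e-05 and 9.7e-13). The other copy (POR, ENSDARG00000059035) fell in both (-0.50 and -0.42, adjusted p = 1.9e-04 and 5.2e-04). CYB5A, a cytochrome b5 that assists P450s, was at 0.03 in wild type (adjusted p = 0.823) and fell by 0.99 in the mutant (adjusted p = 2.8e-08), and the difference was -1.02 (SE 0.13, adjusted p = 1.1e-05). cyb5b rose by 0.48 and 0.24 (adjusted p = 5.4e-04 and 0.0365).

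Enzymes that break down tryptophan, whose products include AHR ligands, fell more often than they rose. The list does not sort enzymes that make such ligands from enzymes that use them up. Of 9 genes, 1 rose and 4 fell in wild type and 0 rose and 7 fell in the mutant, with medians of -0.76 and -1.02, where 22.2% and 32.6% of all genes were called lower. TDO2 (ENSDARG00000071429), the hepatic tryptophan dioxygenase that starts the kynurenine route, went from 98.0 ± 5.59 to 33.8 ± 1.95 CPM (SD, n = 3) in wild type and from 85.0 ± 2.08 to 12.7 ± 2.26 CPM (SD, n = 3) in the mutant. Its log2 fold changes were -1.54 and -2.75 (adjusted p = 3.1e-10 and 1.5e-13). tdo2b, its paralog, fell likewise (-2.76 and -2.43, adjusted p = 8.1e-11 and 1.6e-10). ido1, the inducible dioxygenase, fell in both (-0.95 and -1.75, adjusted p = 0.00256 and 4.4e-06). KMO, which hydroxylates kynurenine, fell in both (-0.76 and -1.56, adjusted p = 2.5e-07 and 1.3e-11). The gene that rose in wild type was kynu, which encodes kynureninase and was named after its values were seen. It was 1.88-fold higher there (0.91, adjusted p = 3.5e-07) and was not called in the mutant (-0.03, adjusted p = 0.763).

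**Figure D4:**
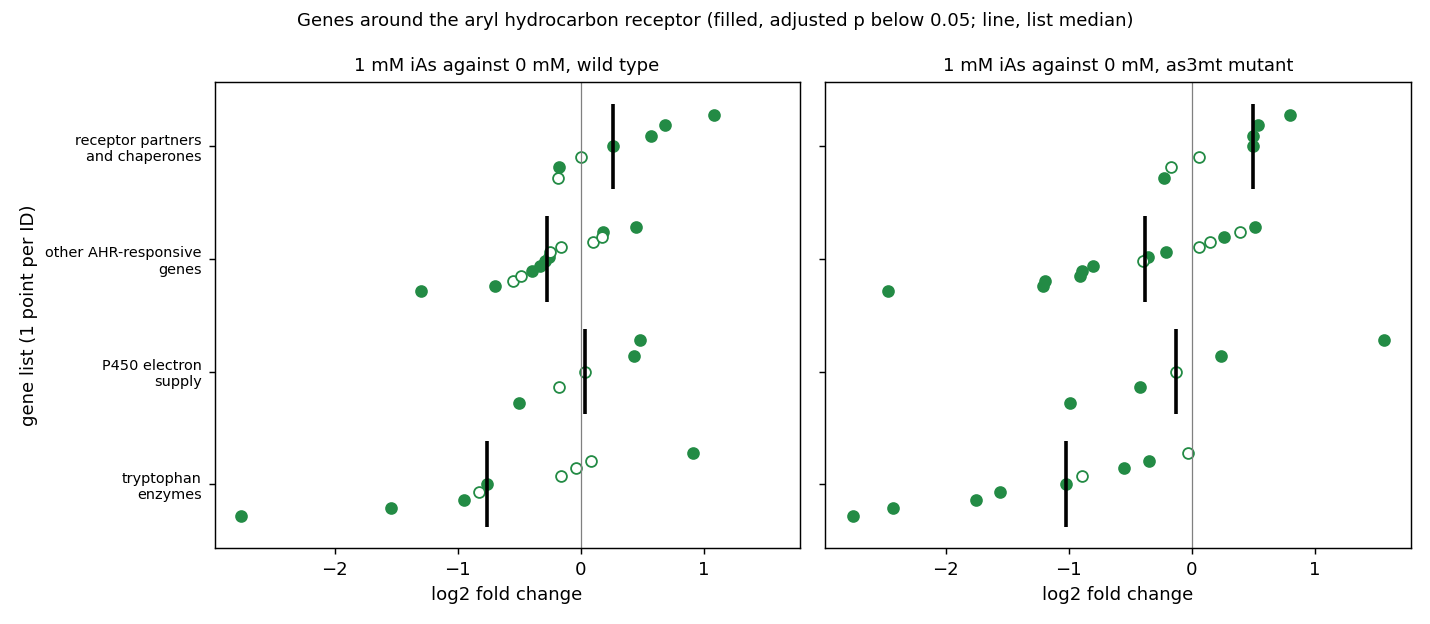
Log2 fold change with 1 mM iAs (horizontal axes) for each tested ID of 4 gene lists around AHR, in wild type (left) and the as3mt mutant (right), with filled points for an adjusted p below 0.05 and a line at each list's median. The medians lie to the right of 0 for receptor partners and chaperones (0.26 and 0.50) and to the left for tryptophan enzymes (-0.76 and -1.02).

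Markers of the organs in which cyp1a is expressed did not all move with it. The counts that follow stand beside 22.6% of all genes called higher and 22.2% lower in wild type, and 31.1% and 32.6% in the mutant. All matched markers were detected, with 0 IDs at 0 counts in any group. Of 17 enterocyte IDs, 14 fell and 1 rose in wild type and 17 fell in the mutant. Their summed level was 2818 to 3082 CPM in untreated and 1658 to 1841 in treated wild type, and 3096 to 3192 in the untreated and 774 to 866 in the treated mutant. Of 15 hepatocyte IDs, 11 fell and 3 rose in wild type, and 9 fell and 4 rose in the mutant. Their summed level was 6399 to 6965 and 5817 to 6342 CPM in wild type and 6553 to 7615 and 5354 to 6306 in the mutant, without and with iAs. In this list fabp10a, the liver fatty acid binding protein, fell in wild type and mutant (-1.02 and -3.73, adjusted p = 2.3e-04 and 5.0e-11), while the fibrinogen gene FGG rose by 0.33 and 1.41 (adjusted p = 0.0133 and 1.4e-09), FGG being named after its values were seen.

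Of 11 endothelial IDs, 5 fell and 0 rose in wild type, and 6 fell and 1 rose in the mutant, with summed levels of 282 to 295 and 244 to 272 CPM in wild type and 281 to 292 and 247 to 259 in the mutant. Of 13 pronephric tubule IDs, 4 fell and 3 rose in wild type, and 7 fell and 3 rose in the mutant, with summed levels of 718 to 757 and 655 to 671 CPM and of 718 to 755 and 807 to 873. The pronephric counts in wild type were near the shares over all genes. In the mutant the pronephric sum was higher with iAs, while more of its IDs fell than rose. There the mean of SLC20A1 (ENSDARG00000010641) went from 184 to 400 CPM and that of SLC12A3 from 21.2 to 61.4. The other SLC20A1 copy (ENSDARG00000020114) went from 53.1 to 29.7 and CUBN from 76.9 to 22.6. The sum thus does not stand for the list as a whole. Set against the mean of untreated wild type, cyp1a stood at 31.4 to 37.8% in treated wild type and 17.3 to 20.9% in the treated mutant. The enterocyte sum stood at 56.0 to 62.2% and 26.1 to 29.3%, and the other 3 sums at 79.3 to 118% in the treated groups. Of cyp1a and the 4 sums, only cyp1a and the enterocyte sum were thus lowest in the treated mutant by a margin with no overlap. The hepatocyte sum hides unlike genes. Between treated mutant and treated wild type, 5 of its IDs were called higher and 5 lower, where 22.5% and 27.9% of all genes were. Its fabp10a, TTR, serpina1, serpina1l and, narrowly, tfa were also lowest in the treated mutant with no overlap. For fabp10a this was 10.4 to 25.8 CPM, against 146 to 190 in treated wild type. For tfa it was 410 to 559 against 568 to 801. Called higher in the treated mutant were FGB (0.63), fga (0.54), FGG (0.96), RBP4 (0.24) and f2 (0.61). Like tfa, these were named after their values were seen. Between treated mutant and treated wild type, 2 endothelial IDs were called higher and 4 lower, and 3 tubule IDs higher and 3 lower. Endothelial ERG, FLI1, cdh5 and TIE1 and tubule CDH17 and LRP2 were among those also lowest in the treated mutant with no overlap. ERG was at 4.57 to 5.02 CPM there, against 6.13 to 7.73 in treated wild type. CDH17 was at 152 to 175 against 182 to 189. They too were named after their values were seen. The part of these cell types in the cyp1a result was not tested.

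**Figure D5:**
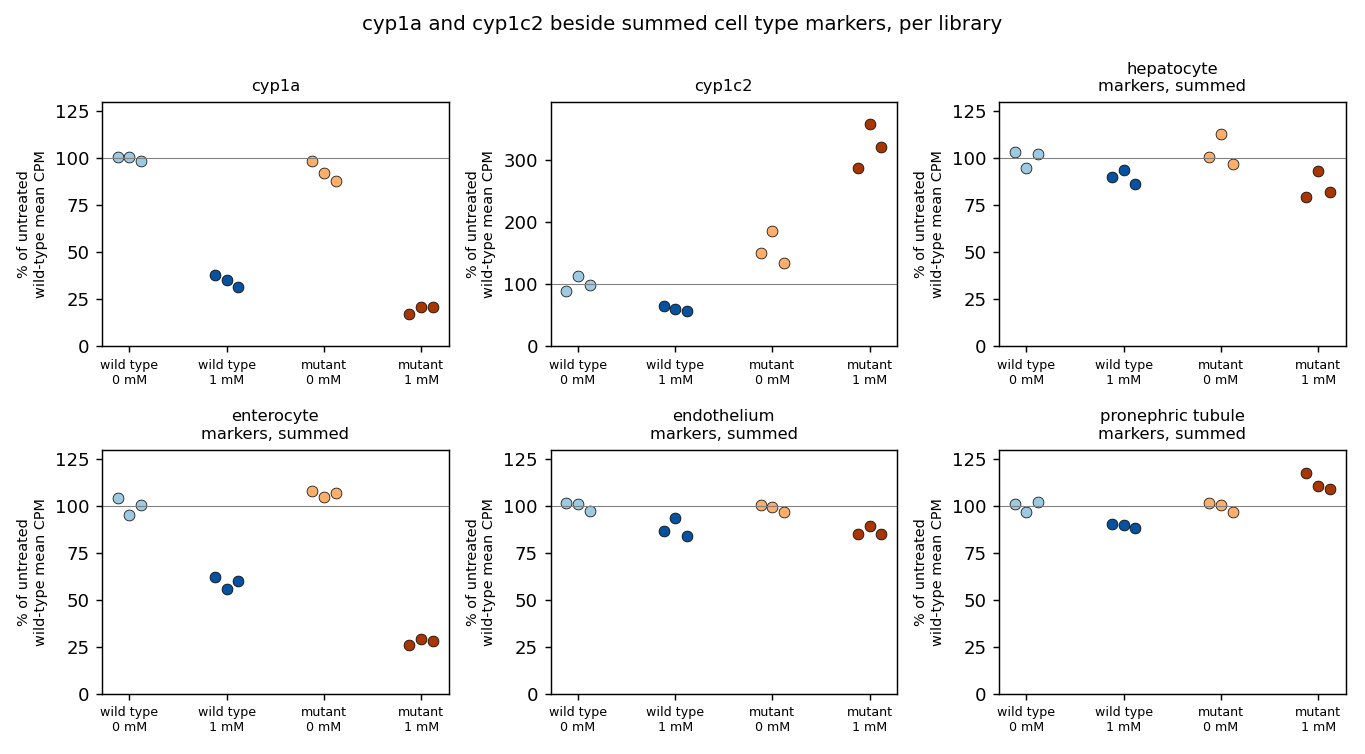
Level per library as a percentage of the untreated wild-type mean (vertical axes, linear, from 0) for cyp1a, cyp1c2 and the summed CPM of 4 marker lists in the 4 groups. cyp1a (17.3 to 20.9% in the treated mutant) and the enterocyte markers (26.1 to 29.3%) are low together, and cyp1c2 is at 287 to 357% there.

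Among the genes whose log2 CPM followed cyp1a most closely over the 12 libraries, of 16629 compared, were gja12.1, a connexin gene, POSTN (ENSDARG00000043806), which encodes the matrix protein periostin, rca2.2, and AATK (ENSDARG00000104442), a kinase gene (Pearson r from 0.995 to 0.997). For tiparp the 5 closest were NDRG1 (ENSDARG00000032849), obscna, PDLIM1, the stress transcription factor gene DDIT3 and b3galt8 (r from 0.990 to 0.995). For ahr2 the 5 closest were SHKBP1, tnpo2a, TPRA1, UCK2 and MLXIP (r from 0.962 to 0.975). The libraries form 4 groups, so these values describe a like order of groups, and a large share of all genes changed between the same groups.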

How the data were processed

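The authors deposited, for each of the 12 libraries, a file of raw read counts per Ensembl gene ID. FastQC 0.11.5 and Trimmomatic 0.36 were used and the genome build was GRCz10, per the submitters' processing notes. Per the labels' protocols, libraries were poly-A selected with a TruSeq kit. Not given in the sources used here were the aligner, the counter, and how strand and shared reads were treated. Symbols came from a table that named 26269 of 32105 IDs, in which cyp1a is listed as CYP1A1. Of 91 list entries, 82 were matched. Sequences of these genes were not used here.

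Low genes were removed by filterByExpr (minimum count 10), and counts were scaled with TMM and fitted with edgeR 4.0.16 (glmQLFit, glmQLFTest) to 4 groups over 12 libraries in R 4.3.3. SE is the log2 fold change divided by the root of the test's F. The fits were tested on simulated counts with 200 changed genes, fewer than were called in these data. Changes of 0.5 on the log2 scale were recovered for 60.0% of genes in the wild-type comparison and 21.5% in the interaction. Changes of 2 were recovered for 100% and 93.7%. An interaction that was not called thus does not exclude a small difference. Between replicates of a group, counts varied beyond sampling noise in every pair (chi-square per degree of freedom 5.18 to 21.5), and 0 pairs were identical. Alternatives were DESeq2 1.42.0, other scalings and filters, only the libraries compared, a replicate block and leaving out each library. All 10 members are named, with up to 4 called genes of each list by size of change and the 5 genes most like cyp1a, ahr2 and tiparp at a mean of at least 1 CPM, except 2 genes that are not reported here. Members and lists were chosen with earlier results of these data known.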

Additional observations from a re-analysis of the deposited data

Results flagged for a closer look

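The response to iAs differed between the genotypes for 4 of the 10 genes by a test of the difference itself, the interaction term of the edgeR fit. By the same test 30.2% of all genes were called, 12.3% higher and 17.9% lower. The mutant's response minus that of wild type was -0.72 on the log2 scale for cyp1a (adjusted p = 1.4e-04), 1.11 for cyp1c1 (adjusted p = 3.8e-05), 1.78 for cyp1c2 (adjusted p = 4.5e-06) and 0.57 for tiparp (adjusted p = 5.9e-04). For cyp1c1 and cyp1c2 the sign of the response differed as well, lower with iAs in wild type and higher in the mutant, and for cyp1c1 the mutant's own rise was not called under every alternative. For cyp1c2 every treated mutant library lay above every untreated one, and every treated wild-type library lay below every untreated one.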

How the results depend on the processing

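In wild type with iAs the number of genes called was 4 to 7 over the 12 fits that left out 1 library, against 7, and the 4 came without replicate 2 of the untreated wild type. Calls over all genes were also fewer in that fit, 8775 of 23330 against 10354 of 23096. Without iAs the genotypes differed in 1 to 2 of the 10 genes over these fits, against 2. Over all genes 2097 to 3495 were called there, against 3110. With iAs in the mutant 7 to 8 of the 10 genes were called, and the numbers for the genotypes with iAs (5) and for the interaction (4) stayed. Ranges that crossed 0 when 1 library was left out were -0.03 to 0.45 for ahrra with iAs in the mutant, -0.06 to 0.08 for ahr2 and -0.08 to 0.26 for ahrrb between untreated genotypes, and -0.27 to 0.04 for cyp1b1 and -0.43 to 0.53 for ahr1a between treated ones. In the interaction they were -0.05 to 0.26 for cyp1b1, -0.87 to 0.10 for ahr1a and 0.00 to 0.13 for ahr2, of which the lowest value was just under 0. ahr2 was at -0.01 between untreated genotypes with DESeq2 size factors and with DESeq2, and at -0.01 in the interaction with library sizes alone. None of these values was called in any of these fits, and their causes were not tested. Of 930 values of the 10 genes under an alternative, 892 kept direction and side of the threshold, 21 lost a call, 1 gained one and 16 changed sign. ahr1a and ahrra could not be fitted at a mean count of at least 50, which they do not reach.

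With the replicate number as a block, 7, 8, 2, 5 and 4 genes were called in the 5 comparisons, the same numbers as without it. Same-numbered libraries of 2 groups had correlations of their deviations from the group means from -0.03 to 0.07, with 0 of 18 over 0.1, so the numbers were not taken to pair the samples. Depth limits ahr1a and ahrra, with 6 to 52 counts per library.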
